A study of Homo sapiens with 9 samples.

Results

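Expression was compared between cells carrying 1 of 2 different guide RNAs against the same gene, KEAP1, in 6 of the 9 libraries of the series. The 6 libraries were taken by their sample titles, 3 from cells with sgKEAP1-2 and 3 from cells with sgKEAP1-1, and all differences are given as sgKEAP1-2 against sgKEAP1-1. The cells were HepG2, an established human liver cancer line with hepatocyte features. They had received Cas9 and a guide together from the lentiCRISPRv2 vector and had been selected with puromycin, and the remaining 3 libraries (sgCtrl) came from cells treated alike with a guide against the AAVS1 safe-harbour locus. No siRNA was used in any of the 9 libraries, and RNA was taken 48 h after seeding. The sample titles spell the guides sgKeap1. They number the libraries of each group 1 to 3, and the count table heads the columns of equal number with a shared prefix whose meaning is not given. The guides were compared with and without this number as a block, to ask which gene programmes are graded between the knockout populations.

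Each guide is represented by a single transduced population, and the sources used here do not state whether it was a pool or a clone, nor whether the 3 libraries came from separate cultures. A difference between guides therefore cannot be told apart from a difference between the populations, and the p-values measure the spread between these libraries, which may be technical. In bulk RNA, fewer cells expressing a gene and less RNA per cell also cannot be told apart.

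KEAP1 is the substrate adaptor that brings the transcription factor NRF2 (gene NFE2L2) to the CUL3 ubiquitin ligase for destruction. When KEAP1 is lost or modified by electrophiles, NRF2 accumulates and, with small MAF partners, binds antioxidant response elements (AREs) near genes for glutathione synthesis, quinone and carbonyl reduction, NADPH supply, iron storage and drug export. In hepatocytes these genes form a detoxification programme that stands beside the secretory and lipid-handling work of the liver.

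The guides are shown because they are the only designed difference between the groups compared. Both match the minus strand of chromosome 19 in GRCh37, the strand on which KEAP1 is transcribed, and each had 1 exact match with a PAM in that genome. Capitals mark the PAM that follows the 20-base guide.
sgKEAP1-1: acaaccccatgaccaatcagTGG
sgKEAP1-2: ttggcatcatgaacgagctgCGG
The sgKEAP1-1 target lay at chr19:10602372-10602391 in coding exon sequence (exon 3 of 6), with 64.3% of the 1872 coding bases before the cut, at codon 402. The sgKEAP1-2 target lay at chr19:10610500-10610519 in exon 2, also coding, with 11.1% of the coding bases before the cut, at codon 70. The cuts are thus separated by 996 coding bases, and KEAP1 itself spans chr19:10596801-10614234.

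KEAP1 mRNA was measured first, as the targeted gene. Its normalized CPM (counts per 1000000 reads after TMM scaling of library sizes, replicates 1 to 3 in order) was 63.3, 89.2 and 85.3 in sgCtrl, 64.1, 62.5 and 53.4 in sgKEAP1-1 and 81.9, 85.6 and 73.9 in sgKEAP1-2. The sgKEAP1-2 libraries all stood above the sgKEAP1-1 libraries and reached into the range of sgCtrl, while the sgKEAP1-1 libraries overlapped the lowest sgCtrl library. The log2 difference between the guides was 0.42 (SE 0.15; adjusted p = 0.9 without and 0.318 with the block, edgeR's quasi-likelihood test). QuantSeq reads come from the 3′ end of a transcript, which both cut sites precede, so KEAP1 mRNA checks neither guide. NFE2L2 mRNA, coding for NRF2 itself, was 178, 214 and 189.6 with sgKEAP1-1 and 197, 201 and 149 with sgKEAP1-2, overlapping sets of values with a log2 difference of -0.09 (95% confidence interval -0.39 to 0.21).

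The 6 libraries held 3157917 to 4725840 reads in rows with a gene number. All 11 hepatocyte markers were in the table, with summed CPM of 26893 to 33473 with sgKEAP1-1 and 24684 to 27698 with sgKEAP1-2, against 36179.6 to 46076 in sgCtrl. Of 9 endothelial markers only LYVE1 was in the table and of 11 fibroblast or stellate markers 3 were, with summed CPM of at most 75.2 in any library. Of 9 cholangiocyte markers 5 were in the table, with KRT19 the most abundant, and their summed CPM was 552 to 638 in sgCtrl, 769 to 1043 with sgKEAP1-1 and 856 to 1099.8 with sgKEAP1-2, so the guides overlapped on it. Its part in the lower hepatocyte gene levels was not tested. Of 11 leukocyte markers 5 were in the table, with LYZ the most abundant (summed CPM 1028 to 2477 with sgKEAP1-1 and 679 to 1538 with sgKEAP1-2). On the first principal component of the 6 libraries (42.5% of the variance) sgKEAP1-2 replicate 3 stood apart at -41.6, with the other 5 between -4.74 and 27.9. In this library TXN, the thioredoxin gene, was at 198 CPM against 743 and 819.7 in the other sgKEAP1-2 libraries, and ACTB, CTSL and CNN3 were also lowest there. Its part in the results was not tested beyond leaving it out, and the main counts are given with and without it.

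Few single genes separated the guides after adjustment. Of 11064 features tested without the block, 2 had an adjusted p under 0.05, both lower with sgKEAP1-2 (0.0181% of features), and 0 were higher (0%). At an unadjusted p under 0.05, edgeR placed 245 features higher (2.21%) and 317 lower (2.87%), and DESeq2 called 4 higher and 15 lower after adjustment. Once the replicate number entered as a block, edgeR called 5 features higher (0.0452%) and 21 lower (0.19%). All 3 sgKEAP1-2 libraries lay above all 3 sgKEAP1-1 libraries for 609 features (5.5%) and below them for 546 (4.93%). Shares moved when 1 guide library was left out of the fit without the block. They ran from 1.18% to 2.51% higher and from 2.09% to 3.46% lower at an unadjusted p under 0.05. Without overlap, 984 to 1168 features then lay above and 927 to 1154 below. The smallest of these values were those without sgKEAP1-1 replicate 3. With all 9 libraries, the median log2 difference over all features was -0.003, with 49.4% of features above 0 and 50.6% below. Fold changes are relative to these values, and the median feature had a 95% confidence interval reaching 0.45 log2 units to each side.

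The 2 features called without the block were MTTP and FABP1, genes of hepatocyte lipid handling. MTTP codes for the microsomal triglyceride transfer protein, which loads lipid onto apolipoprotein B as lipoprotein particles form. Its normalized CPM was 125, 158 and 129 in sgCtrl, 27.0, 50.1 and 42.9 with sgKEAP1-1 and 8.93, 15.1 and 9.21 with sgKEAP1-2. The 3 groups formed separate steps, and the lowest sgKEAP1-1 library was well above the highest sgKEAP1-2 library. MTTP was 3.58-fold lower with sgKEAP1-2 than with sgKEAP1-1, a log2 difference of -1.84 (SE 0.25; adjusted p = 0.0377 without the block and 2.7e-05 with it). FABP1, the liver fatty acid binding protein, had 1254, 1254 and 1074 CPM in sgCtrl, 483, 766 and 521 with sgKEAP1-1 and 239, 271 and 294 with sgKEAP1-2. Here too no library of one guide reached the range of the other. The difference was 2.2-fold, or -1.14 in log2 units (SE 0.16; adjusted p = 0.0377 without and 0.000431 with the block).

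Both calls depended on the fit when the block was left out. The adjusted p of MTTP ran from 0.00665 to 0.251 and that of FABP1 from 0.0323 to 0.251 when 1 of the 9 libraries was left out, and the calls were lost without any 1 sgCtrl library, without sgKEAP1-1 replicate 2 or 3, and without sgKEAP1-2 replicate 1 or 3. FABP1 was also lost without sgKEAP1-2 replicate 2. Without sgKEAP1-2 replicate 3, MTTP had a log2 difference of -1.71 (adjusted p = 0.165), FABP1 had -1.21 (adjusted p = 0.0807), and IGF2, a fetal growth factor gene, was the single feature called, at -1.24 (adjusted p = 0.00705). With the block, MTTP and FABP1 kept an adjusted p under 0.05 whichever of the 6 guide libraries was left out.

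AFP and MATN3 also kept that call in the blocked fit whichever guide library was left out. AFP, which codes for alpha-fetoprotein, the fetal counterpart of albumin that HepG2 cells secrete, was at 5386, 6902 and 5789 CPM in sgCtrl, 2019, 3143 and 2338 with sgKEAP1-1 and 1147, 1386 and 930.1 with sgKEAP1-2. It stepped down from group to group with no overlap, and was 2.17-fold lower with sgKEAP1-2 (log2 -1.12, SE 0.18; adjusted p = 0.0873 without and 2.91e-05 with the block). MATN3, for the matrix protein matrilin 3, was 118, 127 and 104 in sgCtrl, 149.6, 187 and 151 with sgKEAP1-1 and 93.0, 88.8 and 56.7 with sgKEAP1-2. It was not graded: sgCtrl lay between the guides, with every sgKEAP1-1 library above it and every sgKEAP1-2 library below it. The log2 difference between the guides was -1.03 (adjusted p = 0.0918 without and 0.000431 with the block), while against sgCtrl it was 0.48 for sgKEAP1-1 and -0.55 for sgKEAP1-2, neither of them past the threshold (adjusted p = 0.171 and 0.0662).

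**Figure D1:**
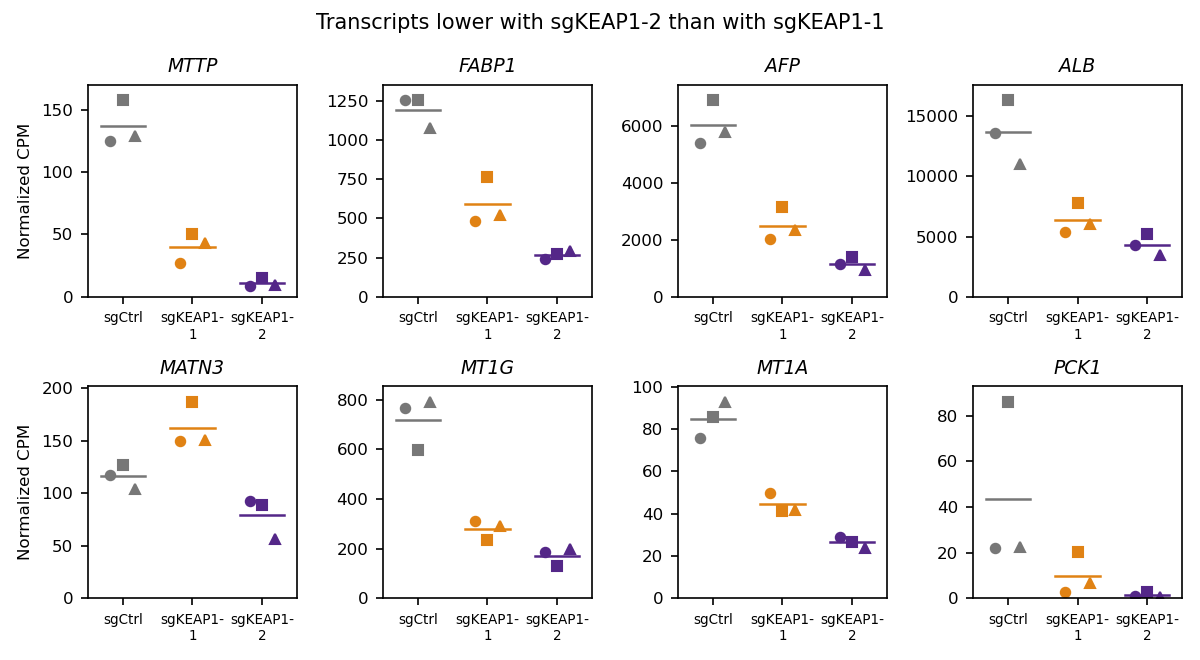
Normalized CPM (y axes, from 0) of 8 genes with lower means with sgKEAP1-2, by group on the x axis, where circles, squares and triangles are replicates 1, 2 and 3 and lines are group means. MTTP, FABP1, AFP, ALB, MATN3, MT1G and MT1A do not overlap between the guides, PCK1 does, and MATN3 alone has its sgKEAP1-1 libraries above sgCtrl.

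Secreted liver proteins were mostly lower with sgKEAP1-2. Of 54 listed plasma protein genes 40 were tested, and 32 had a lower mean with sgKEAP1-2. Without the block 12 had an unadjusted p under 0.05 and a lower level against 0 higher, 11 did not overlap between the guides (2.87% and 4.93% of all features), and the median log2 difference was -0.26 (all features -0.003). ALB, for albumin, was at 13608, 16328 and 11034 CPM in sgCtrl, 5373, 7761 and 6030.2 with sgKEAP1-1 and 4281, 5186 and 3493 with sgKEAP1-2, a 1.48-fold difference between guides without overlap (adjusted p = 0.884 without and 0.0231 with the block). The complement gene C3 (log2 -0.44), the iron carrier gene TF (-0.35), the fibrinogen chain gene FGG (-0.70), the clotting factor gene F11 (-0.69) and the adhesion protein gene VTN (-0.86) were among the other members with an unadjusted p under 0.05. In the blocked fit AFP and ALB were the 2 members past the adjusted threshold. With the block and the 6 guide libraries alone, AFP was called (adjusted p = 0.00399) and ALB was not (0.212).

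The median change of the plasma protein genes against sgCtrl was -0.34 with sgKEAP1-1 and -0.63 with sgKEAP1-2, comparisons that share the sgCtrl libraries. Taken per library, their median level against the sgCtrl mean was -0.34, -0.11 and -0.52 with sgKEAP1-1 and -0.66, -0.48 and -0.58 with sgKEAP1-2. The guides overlapped on this measure, since sgKEAP1-1 replicate 3 lay below sgKEAP1-2 replicate 2. Without sgKEAP1-1 replicate 2, the median difference was -0.13 with 6 members lower at an unadjusted p under 0.05, without sgKEAP1-2 replicate 1 it was -0.25 with 7, and without sgKEAP1-2 replicate 3 it was -0.30 with 13.

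Genes of lipid handling were mixed. Of 26 listed genes of lipoprotein assembly 21 were tested, with a median difference of -0.09, and 1 member was higher and 2 lower at an unadjusted p under 0.05 (2.21% and 2.87% of all features). Without sgKEAP1-2 replicate 3 the median was -0.25 with 7 lower, and without sgKEAP1-2 replicate 1 it was 0.02 with 1 lower. MTTP had the lowest log2 difference of this list. APOB, the protein MTTP loads, was 4514, 4945 and 4502 CPM with sgKEAP1-1 and 4402, 4815 and 5579 with sgKEAP1-2, overlapping ranges with a log2 difference of 0.084 (95% confidence interval -0.17 to 0.34). APOE, a lipoprotein receptor ligand, was higher in all sgKEAP1-2 libraries (219.7, 234 and 201 against 246, 277 and 260.5; log2 0.26, adjusted p = 0.96).

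Of 31 listed genes of fatty acid uptake and oxidation 27 were tested, with a median of -0.18 and 21 lower means (-0.11 and 18 without sgKEAP1-1 replicate 2). At an unadjusted p under 0.05, 1 member was higher and 3 lower (2.21% and 2.87% of all features), and 3 lay above and 6 below without overlap (5.5% and 4.93%). Besides FABP1, the members lower at an unadjusted p under 0.05 were HADH, a mitochondrial beta-oxidation enzyme (-0.52), and SLC27A2, a fatty acid transporter and acyl-CoA synthetase (-0.51). CD36, a fatty acid translocase and scavenger receptor, was the 1 member higher, at 4.77, 3.403 and 4.74 CPM in sgCtrl, 25.1, 22.9 and 19.2 with sgKEAP1-1 and 41.3, 26.6 and 34.4 with sgKEAP1-2 (log2 0.60; adjusted p = 0.9). The means of FABP1 and CD36 thus differed between the guides in opposite directions, and each lay further from sgCtrl with sgKEAP1-2. CD36, unlike FABP1, was called in neither fit. Of 32 listed cholesterol and fatty acid synthesis genes 28 were tested, with a median of -0.13, which was -0.037 without sgKEAP1-2 replicate 2 and -0.21 without sgKEAP1-2 replicate 3. At an unadjusted p under 0.05, 4 members were lower (2.87% of all features) and 0 were higher. The 4 included IDI1 (-0.47) and SQLE (-0.32) of sterol synthesis and the lipogenic regulator SREBF1 (-0.49). Without sgKEAP1-1 replicate 3 the count of lower members was 2 (2.09% of all features in that fit).

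The gluconeogenic enzymes PCK1 and G6PC1 had wide differences in mean and overlapping libraries. PCK1 was at 22.0, 86.1 and 22.3 CPM in sgCtrl, 2.68, 20.3 and 6.57 with sgKEAP1-1 and 1.23, 2.93 and 0.727 with sgKEAP1-2. Replicate 2 was the highest library of all 3 groups, so the guides overlapped although each sgKEAP1-2 library was below the sgKEAP1-1 library of the same number. The log2 difference of -2.58 had an adjusted p of 0.968 without the block and 0.00209 with it. Without the block it ran from -3.34 to -1.45 when 1 of the 9 libraries was left out. G6PC1 had the same shape on fewer reads, with 16, 44 and 4 counts with sgKEAP1-1 and 1, 7 and 0 with sgKEAP1-2, where the 0 allows up to 0.712 CPM (adjusted p = 0.986 without and 0.0195 with the block). This limit covers counting error only.

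Metallothioneins, small cysteine-rich proteins that buffer zinc and copper, also had lower values with sgKEAP1-2. Of the 10 listed genes 9 were tested, 7 of them metallothioneins, and all 7 had lower means with sgKEAP1-2. The list's median was -0.34, with 5 members lower at an unadjusted p under 0.05 and 4 without overlap (2.87% and 4.93% of all features), and the median stayed between -0.34 and -0.44 whichever guide library was left out. MT1G was at 767, 596 and 792 CPM in sgCtrl, 313, 236 and 292 with sgKEAP1-1 and 188, 130.5 and 198 with sgKEAP1-2, 1.63-fold lower with the latter (adjusted p = 0.502 without and 0.00209 with the block). MT1A showed a like stepwise pattern, 75.5, 85.4 and 92.9, then 49.9, 41.4 and 41.8, then 28.9, 26.8 and 23.99 (log2 -0.74; adjusted p = 0.0496 with the block). Of the 6 blocked fits that leave out 1 guide library, MT1A passed in 1, the fit without sgKEAP1-2 replicate 1.

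MT1M had a log2 difference of -1.73 on few reads (51, 43 and 25 counts for sgKEAP1-1 and 16, 8 and 8 for sgKEAP1-2), with an adjusted p of 0.0224 in the blocked fit. MT1E (-0.34) and MT1F (-0.43) were lower at an unadjusted p under 0.05, MT1X (-0.27) and MT2A (-0.32) were not. The zinc exporter gene SLC30A1, itself induced by zinc, had -0.076 (95% confidence interval -0.45 to 0.30). Per library the list's median level against the sgCtrl mean was -0.88, -1.02 and -0.92 with sgKEAP1-1 and -1.27, -1.54 and -1.37 with sgKEAP1-2. These sets did not overlap. The metallothionein genes are near-identical in sequence, and how the counting shared reads among them was not stated.

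The programme of NRF2 targets ran the other way. Its 7 lists together held 78 genes, of which 65 were tested, 57 had a higher mean with sgKEAP1-2 and the median difference was 0.27 (-0.003 over all features). At an unadjusted p under 0.05, 17 were higher and 0 lower, 18 lay without overlap above sgKEAP1-1 and 0 below, and with the block 26 were higher and 0 lower. All features gave 2.21% higher and 2.87% lower at that p, 5.5% above and 4.93% below without overlap, and 3.71% higher and 5.36% lower in the blocked fit. The median differences between same-numbered libraries were 0.30, 0.24 and 0.28. Without sgKEAP1-1 replicate 3, 7 members were higher at an unadjusted p under 0.05 with a median of 0.21. Without sgKEAP1-2 replicate 3, the numbers were 25 and 0.33. Of all features, 1.18% were higher at that p in the former fit and 2.15% in the latter.

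Against sgCtrl the median of the 65 genes was 0.92 with sgKEAP1-1 and 1.24 with sgKEAP1-2. Per library it stood at 1.00, 1.07 and 0.74 above the sgCtrl mean with sgKEAP1-1 and at 1.28, 1.37 and 1.14 with sgKEAP1-2, so every sgKEAP1-2 library was above every sgKEAP1-1 library, while the sgCtrl libraries ranged from -0.04 to 0.08.

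**Figure D2:**
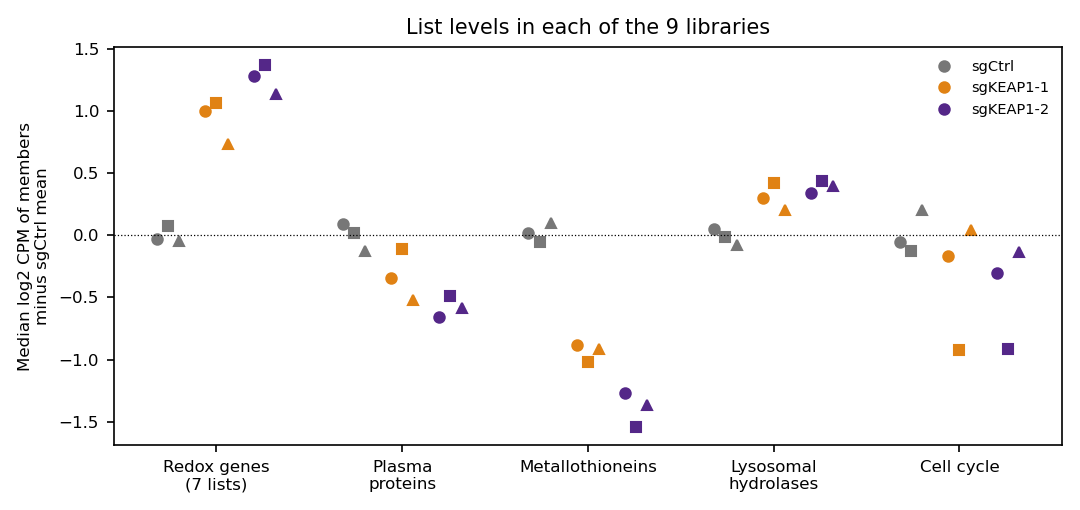
Median log2 CPM of the tested members of 5 gene lists minus their sgCtrl mean (y axis, log2 units) in each of the 9 libraries, by group on the x axis. The redox genes (NRF2 targets) and the metallothioneins separate the guides in every library, plasma proteins and cell cycle genes overlap, and lysosomal hydrolases lie at 0.20 to 0.42 with sgKEAP1-1 and 0.34 to 0.43 with sgKEAP1-2.

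The target classes were not tested against each other. Among them, with all 9 libraries and no block, the aldo-keto reductases and quinone or alkenal reductases most often had an unadjusted p under 0.05. Of 17 listed 14 were tested, 13 had a higher mean, 7 an unadjusted p under 0.05 and 8 no overlap (2.21% and 5.5% of all features), with a median of 0.35. The count of 7 was 11 without sgKEAP1-2 replicate 3 and 4 without sgKEAP1-1 replicate 3 or sgKEAP1-2 replicate 2. All features gave 2.15%, 1.18% and 2.51% higher at that p in these fits, in the same order. Genes of NADPH supply had the larger share without sgKEAP1-2 replicate 1 (50% against 35.7%) or replicate 2 (33.3% against 28.6%). Without sgKEAP1-1 replicate 2, the list of other NRF2 targets had an equal share (50%). With all 9 libraries, that list had the largest median of the 7, 0.41 over 14 tested genes, with 13 higher means. Its median ran from 0.33 to 0.44 with 1 guide library left out, and 3 of its members were higher at an unadjusted p under 0.05. The 5 tested efflux pump genes all had higher means, with a median of 0.19 and 1 such p-value. AKR1C1, a steroid and carbonyl reductase, was at 1213, 1081 and 749.8 CPM in sgCtrl, 3268, 3739.9 and 2611 with sgKEAP1-1 and 5094, 6061 and 4158 with sgKEAP1-2, 1.59-fold higher with sgKEAP1-2 (log2 0.67; adjusted p = 0.811 without and 0.00461 with the block). Its near-identical neighbour AKR1C2 was at 3105, 2381 and 2681 with sgKEAP1-1 and 4342, 4123 and 4263 with sgKEAP1-2 (log2 0.64; adjusted p = 0.362 without and 0.021 with the block). Reads of such a close pair may be split uncertainly between them. AKR1C1 and AKR1C2 were the 2 NRF2 targets called in the blocked fit. With the block and the 6 guide libraries alone, neither was called (adjusted p = 0.0565 and 0.0876).

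Other enzymes of the class, PTGR1 and NQO1, had smaller differences between the guides, and neither passed the adjusted threshold in either fit. PTGR1, which reduces alkenals and prostaglandins, was at 17.8, 19.7 and 21.8 CPM in sgCtrl, 694, 769 and 544 with sgKEAP1-1 and 1038, 1102 and 777 with sgKEAP1-2. The guides did not overlap and differed by 0.54 in log2 units (adjusted p = 0.0529 with the block), beside a change of 5.08 from sgCtrl to sgKEAP1-1. NQO1, the quinone reductase most used as a readout of NRF2, was at 536, 521 and 505 CPM in sgCtrl, 1442, 1360.3 and 1265 with sgKEAP1-1 and 1899.7, 1769 and 1545 with sgKEAP1-2, 1.28-fold higher with sgKEAP1-2 (adjusted p = 0.877 without and 0.185 with the block).

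NADPH supply and glutathione synthesis showed differences of like size, with no member past the adjusted threshold in either fit. The guides overlapped on the per-library median level of each list against the sgCtrl mean. For NADPH supply, sgKEAP1-2 replicate 1 (0.69) lay below sgKEAP1-1 replicate 2 (0.77). For glutathione, sgKEAP1-2 replicate 3 (0.77) lay below every sgKEAP1-1 library. In both lists the remaining sgKEAP1-2 libraries lay above every sgKEAP1-1 library. TALDO1, the transaldolase of the pentose phosphate pathway, was at 537, 476 and 480.2 CPM with sgKEAP1-1 and 634, 618 and 735 with sgKEAP1-2 (log2 0.41), and PGD, which makes NADPH in that pathway, differed by 0.42. All 6 tested genes of NADPH supply had higher means, 2 of them at an unadjusted p under 0.05 (2.21% of all features), with a median of 0.24 that ran from 0.17 to 0.34 with 1 guide library left out. GCLM, the modifier subunit of the enzyme that starts glutathione synthesis, differed by 0.41 with overlapping libraries, and GPX2, a glutathione peroxidase, by 0.37 without overlap. The 13 tested glutathione genes had a median of 0.24 and 2 unadjusted p-values under 0.05, both higher. The median was 0.11 with 1 such p-value without sgKEAP1-1 replicate 3 and 0.32 with 4 without sgKEAP1-2 replicate 3, and there were 0 without sgKEAP1-2 replicate 1.

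Of 9 listed iron and heme genes 8 were tested and 7 had higher means with sgKEAP1-2. The median was 0.28 (0.14 without sgKEAP1-1 replicate 3 and 0.15 without sgKEAP1-2 replicate 1), with 2 higher and 0 lower at an unadjusted p under 0.05 (2.21% and 2.87% of all features). FTL, the ferritin light chain, was at 3494, 3439.8 and 4085 CPM in sgCtrl, 6117, 6070.1 and 5732 with sgKEAP1-1 and 7407, 7977 and 8716 with sgKEAP1-2, stepwise higher (log2 0.43 between guides; adjusted p = 0.704 without and 0.128 with the block). HMOX1, the heme oxygenase that both NRF2 and its competitor BACH1 control, was at 32.1, 42.2 and 39.0 CPM in sgCtrl, 41.7, 30.7 and 45.0 with sgKEAP1-1 and 33.2, 29.0 and 49.7 with sgKEAP1-2, with the 3 groups overlapping and a log2 difference of -0.062 between the guides (95% confidence interval -0.52 to 0.40). Thioredoxin and peroxiredoxin genes had a median of 0.00 over 7 members, PRDX1 being the 1 with an unadjusted p under 0.05 (0.26). Their median was 0.17 without sgKEAP1-1 replicate 1. Without sgKEAP1-1 replicate 2 or 3, or sgKEAP1-2 replicate 1 or 3, 0 members had such a p. The 16 regulators of the pathway had a median of 0.10, which was 0.04 without sgKEAP1-1 replicate 1, -0.006 without sgKEAP1-2 replicate 2 and 0.15 without sgKEAP1-2 replicate 3. At an unadjusted p under 0.05, KEAP1 and SQSTM1 were higher and PGAM5, a mitochondrial phosphatase that binds KEAP1, was lower (-0.35), 2 and 1 members beside 2.21% and 2.87% of all features. SQSTM1, the autophagy receptor that binds KEAP1 and is itself an NRF2 target, differed by 0.47 (adjusted p = 0.069 with the block).

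**Figure D3:**
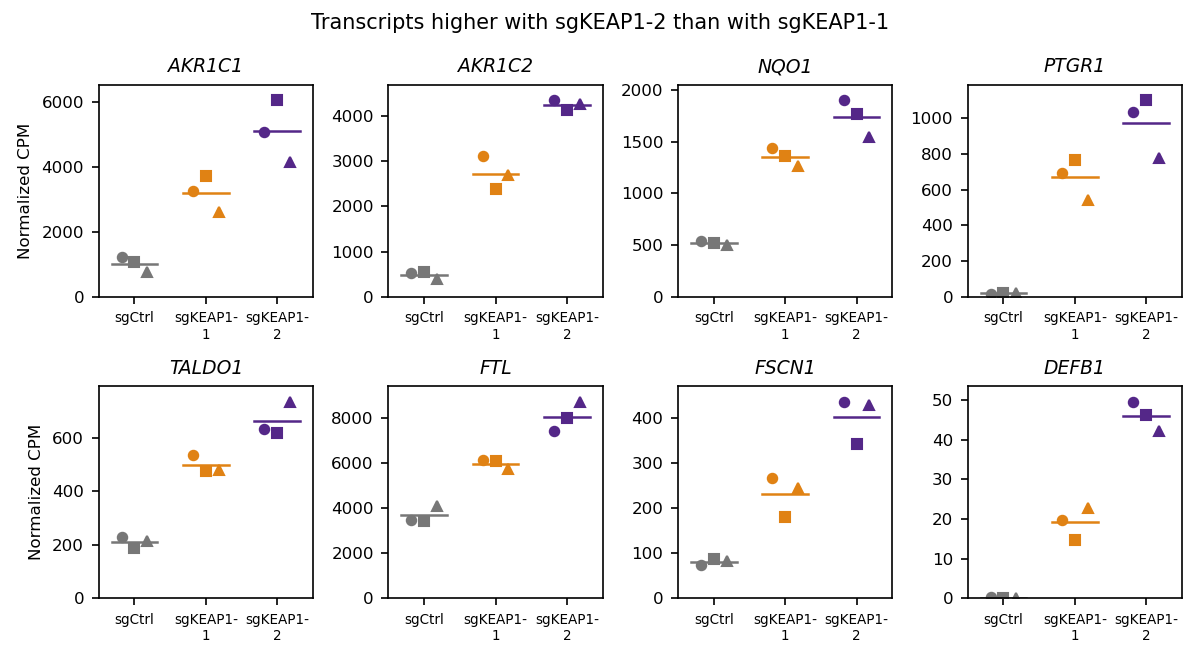
Normalized CPM (y axes, from 0) of 8 genes with higher means with sgKEAP1-2, by group on the x axis, where circles, squares and triangles are replicates 1, 2 and 3 and lines are group means. All 8 are without overlap between the guides, and in each the sgCtrl libraries lie lowest.

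The other 3 genes called higher with the block are not in the NRF2 target lists. DEFB1, an epithelial antimicrobial peptide, had 1, 0 and 0 counts in sgCtrl, 19.7, 14.8 and 22.9 CPM with sgKEAP1-1 and 49.6, 46.1 and 42.2 with sgKEAP1-2. It was 2.4-fold higher with sgKEAP1-2 (log2 1.27, SE 0.21; adjusted p = 0.0873 without and 0.00343 with the block). FSCN1, the actin-bundling protein fascin, rose from 73.1, 87.4 and 82.0 in sgCtrl to 267, 181 and 245 with sgKEAP1-1 and 436, 341 and 428 with sgKEAP1-2 (log2 0.80 between guides; adjusted p = 0.164 without and 0.00456 with the block). PLA2G2A, a secreted phospholipase, was at 5.30, 2.38 and 5.58 CPM in sgCtrl, 74.0, 70.6 and 33.9 with sgKEAP1-1 and 159, 186 and 128 with sgKEAP1-2 (log2 1.40; adjusted p = 0.251 without and 0.00461 with the block). In these genes sgCtrl was lowest and sgKEAP1-2 highest, with no overlap at either step.

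Among the remaining genes called lower with the block were transporters and membrane proteins. SLC6A14, an amino acid transporter, was at 19.3, 8.85 and 10.6 CPM in sgCtrl, 23.6, 20.04 and 21.04 with sgKEAP1-1 and 9.54, 6.34 and 3.88 with sgKEAP1-2, with sgCtrl below every sgKEAP1-1 library and overlapping sgKEAP1-2 (log2 -1.73 between the guides; adjusted p = 0.164 without and 0.00243 with the block). SLCO4C1, an organic anion transporter, was graded from 37.4, 26.2 and 37.6 through 11.4, 6.75 and 9.47 to 2.77, 2.68 and 3.88 (log2 -1.54; adjusted p = 0.0206 with the block). SLC13A5, the citrate carrier of hepatocytes (-0.73; 0.0164 with the block), overlapped between the guides. The other calls included SH2D4A (-1.08), PAQR9 (-0.90), SCARA3 (-0.89), FREM1 (-1.70), LINC00261 (-0.62) and the homeobox gene MIXL1 (-0.67). Of the 26 features called with the block, 5 overlapped between the guides when the numbers were ignored, among them PCK1, G6PC1, SLC13A5 and MIXL1.

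With 1 guide library left out, fewer of these calls passed the threshold. Of the 26, 24 were still called without sgKEAP1-2 replicate 3, 22 without sgKEAP1-2 replicate 1, 16 without sgKEAP1-1 replicate 1 and 15 without sgKEAP1-1 replicate 3, but 6 without sgKEAP1-2 replicate 2 and 5 without sgKEAP1-1 replicate 2. MTTP, FABP1, AFP and MATN3 were called in all 6 of these fits. Without sgKEAP1-1 replicate 2 the remaining call was G6PC1, and without sgKEAP1-2 replicate 2 they were FSCN1 and SLC6A14. AKR1C1, AKR1C2, ALB, DEFB1, MT1G, PCK1 and PLA2G2A were called in neither of these last fits. The log2 differences kept their direction, however, ranging over the 6 fits from 0.62 to 0.74 for AKR1C1, 1.11 to 1.49 for DEFB1, -0.77 to -0.64 for MT1G and -2.75 to -2.28 for PCK1.

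For lysosomal hydrolases no difference between the guides was detectable at this depth. Of 41 listed hydrolases 33 were tested, 0 had an unadjusted p under 0.05 in either direction, without or with the block, and 5 lay above and 2 below without overlap (5.5% and 4.93% of all features). The median difference was 0.08, turning to -0.01 without sgKEAP1-1 replicate 3, and the median member's 95% confidence interval reached 0.37 log2 units to each side. CTSD, for the protease cathepsin D, was at 413, 372 and 383 CPM with sgKEAP1-1 and 351, 352 and 449.9 with sgKEAP1-2 (log2 -0.018, 95% confidence interval -0.29 to 0.25). Against sgCtrl the list's median was 0.34 with sgKEAP1-1 and 0.26 with sgKEAP1-2. Per library, its median level against the sgCtrl mean was 0.30, 0.42 and 0.20 with sgKEAP1-1. With sgKEAP1-2 it was 0.34, 0.43 and 0.40, so the order of the guides turned with the measure. Of 27 tested genes of the lysosomal membrane and its proton pump, 2 were higher and 0 lower at an unadjusted p under 0.05 (2.21% and 2.87% of all features). The 2 were ATP6V1E1 (0.32) and ATP6V0E1 (0.28), both pump subunits. Without overlap, 6 members lay above (22.2% of the list, 5.5% of all features) and 0 below (4.93% of all features). The median was 0.06, and the count of 2 was 0 without sgKEAP1-1 replicate 3 or sgKEAP1-2 replicate 2. In each of these fits the median was 0.02, and without sgKEAP1-2 replicate 3 it was 0.11. Over 19 genes of the TFEB and TFE3 factors and nutrient sensing the median was 0.04, which was -0.06 without sgKEAP1-1 replicate 3. At an unadjusted p under 0.05, 1 member was higher and 1 lower (2.21% and 2.87% of all features). These were TFE3 at 0.39 and RRAGC, a Rag GTPase, at -0.66, and neither passed the adjusted threshold in either fit.

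For several other programmes the median lay within 0.1 of 0 and most turned sign with 1 guide library left out. Ribosomal proteins (72 tested) had a median of -0.04, the respiratory chain (68) -0.02, chaperones (30) 0.00, proteasome subunits (35) 0.09, autophagy genes (30) 0.04 and amino acid response genes of ATF4 (24) 0.03. Over the 6 fits that leave out 1 guide library, the medians ran from -0.11 to 0.07 for ribosomal proteins, -0.06 to 0.01 for the respiratory chain, -0.07 to 0.06 for chaperones, 0.05 to 0.13 for proteasome subunits, -0.06 to 0.07 for autophagy and -0.08 to 0.22 for ATF4 genes. The ATF4 genes had 22 of 24 higher means without sgKEAP1-1 replicate 2 and 10 without sgKEAP1-1 replicate 3. Ribosomal proteins had 59 of 72 higher means in the former fit and 15 in the latter. Hepatocyte transcription factors (22 tested) had a median of -0.07, which ran from -0.15 to -0.04 with 1 guide library left out. Without the block 0 members had an unadjusted p under 0.05. With it 1 was higher and 2 were lower (3.71% and 5.36% of all features in that fit). Cell cycle and replication genes (35) had a median of -0.13 and 32 lower means, but the median was 0.06 without sgKEAP1-1 replicate 3 and 0.08 without sgKEAP1-2 replicate 2, and 0 members were without overlap. UHRF1, a DNA methylation cofactor (-0.99), and TYMS, the thymidylate synthase (-0.32), were the 2 members with an unadjusted p under 0.05, both lower (2.87% of all features). That count was 8 without sgKEAP1-1 replicate 2 (3% of all features in that fit), with a median of -0.34. In that fit 14 members lay below without overlap, beside 1154 of all 11063 features. The count of members lower at that p was 0 without sgKEAP1-1 replicate 3 or sgKEAP1-2 replicate 2. Of 35 listed progenitor and epithelial genes 27 were tested, with 4 higher and 5 lower at an unadjusted p under 0.05 (2.21% and 2.87% of all features). These were SOX4 (0.44), CLDN4 (0.43), S100A11 (0.35) and SFN (0.39) higher and AFP, IGF2 (-0.91), PROM1 (-0.96), CLDN1 (-0.47) and EPCAM (-0.29) lower. Without sgKEAP1-1 replicate 3 the counts were 1 and 3 (1.18% and 2.09% of all features in that fit).

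Promoter sequence was looked at because secreted liver proteins were mostly lower and NRF2 targets mostly higher with sgKEAP1-2. Promoters from RefSeq (GRCh38.p14, 250 bases before to 50 after the start) were on hand for 8940 of the tested features. The ARE core TGACNNNGC, on either strand, was in 15.4% of them and in 12 of 50 promoters of the NRF2 target lists (24%). Among lists with lower medians it was in 7 of 31 plasma protein promoters, 3 of 4 of the metallothionein list, 0 of 13 of lipoprotein assembly, 1 of 21 of cholesterol and fatty acid synthesis and 2 of 23 of fatty acid uptake and oxidation, and among lysosomal lists in 8 of 22 of hydrolases and 7 of 20 of the membrane list. GTTAAT, part of the consensus of the hepatocyte factor HNF1, on either strand, was in 3.53% of all and in 8 of 31 promoters of plasma protein genes (25.8%). It was also in 4 of 10 promoters of the glutathione list, which had higher means, in 5 of 50 of all NRF2 target lists and in 5 of 13 of drug metabolism genes, whose median difference was 0.03. The blocked fit called 21 features lower with sgKEAP1-2, and the share of them with a match is not given here. Of these, AFP, ALB, FABP1 and G6PC1 were picked for display. Each had 1 match, shown in capitals 5′ to 3′ on the gene's strand.
AFP, chr4:73436064-73436119 (+): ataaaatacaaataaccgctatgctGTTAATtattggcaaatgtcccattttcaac
ALB, chr4:73404201-73404256 (+): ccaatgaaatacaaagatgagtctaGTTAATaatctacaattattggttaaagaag
FABP1, chr2:88128140-88128195 (-): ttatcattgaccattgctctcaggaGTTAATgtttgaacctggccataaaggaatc
G6PC1, chr17:42900549-42900603 (+): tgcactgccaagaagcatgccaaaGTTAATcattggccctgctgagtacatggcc
GPX2 held these letters too, and the MTTP promoter entry did not. In the aldo-keto and quinone reductase list, which holds AKR1C1 and AKR1C2, the ARE core was in 2 of 12 promoters (16.7%), beside 15.4% of all. GCLM, GPX2 and PGD are shown because they matched, and none of them passed the adjusted threshold in either fit. They were higher with sgKEAP1-2 by 0.41, 0.37 and 0.42 in log2 units. Each had 1 ARE core, here in capitals and reading as its reverse complement on the gene's strand.
GCLM, chr1:93909431-93909489 (-): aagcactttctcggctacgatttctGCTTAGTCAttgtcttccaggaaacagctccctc
GPX2, chr14:64942834-64942892 (-): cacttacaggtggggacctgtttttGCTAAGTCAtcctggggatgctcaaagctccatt
PGD, chr1:10398838-10398896 (+): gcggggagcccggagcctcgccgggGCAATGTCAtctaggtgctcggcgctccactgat
The ARE core was also in the promoters of LINC00261, PAQR9 and SLCO4C1, which were lower with sgKEAP1-2 in the blocked fit. A match is a description of these letters and no measure of binding.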

How the data were processed

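The 9 HepG2 libraries were made with QuantSeq, which reads the 3′ end of polyadenylated RNA. The authors trimmed, aligned and counted the reads and deposited whole-number counts per gene. The submitters' processing notes name FastQC 0.72, cutadapt 1.16, STAR 2.7.5b, featureCounts 1.6.3 and limma 3.40.6. The study's methods give GRCh37 and the notes hg38, so gene coordinates are not printed from the table. Strand setting and annotation are not given in the sources used here. Rows with no gene number (1052 of 12798, 1.34% of reads) were left out, and 0 sample columns were unmapped.

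Counts were filtered with filterByExpr, scaled by TMM and tested with edgeR's robust quasi-likelihood test (edgeR 4.0.16, R 4.3.3) over all 9 libraries, with the group alone or with the replicate number as a block. P-values were adjusted by Benjamini-Hochberg over 11064 features. Log2 CPM for the levels of gene lists used a prior count of 2. Gene lists were described by counts and medians, with no set test. Limma-voom (limma 3.58.1), DESeq2 (1.42.0), other scalings and filters, the 6 guide libraries alone and leaving out each library were tried. The pipeline was tested on simulated data.

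Genes are named by 4 rules. They are KEAP1 and NFE2L2, features past the adjusted threshold in either fit, up to 2 members per list with the smallest unadjusted p under 0.05, and the 8 highest and 8 lowest fold changes without overlap at 20 CPM or more. Other genes named, such as NQO1, HMOX1, CD36, APOB, APOE, CTSD and SLC30A1, were picked with their values in view. The comparison and the gene lists were chosen with earlier results of these data known. Some items that these rules select are not reported here.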

Additional observations from a re-analysis of the deposited data

Results flagged for a closer look

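MTTP and FABP1 differed between the guides by the direct test of that difference without the block. For MTTP the difference was a log2 fold change of -1.84 and for FABP1 it was -1.14, both lower with sgKEAP1-2 in 3 of 3 libraries against all 3 sgKEAP1-1 libraries.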

How the results depend on the processing

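The count of features past the adjusted threshold was 2 without the block, and also 2 with DESeq2's size factors, with library totals or with no filter. It was 0 with limma-voom (626 at an unadjusted p under 0.05), 0 with at least 10 counts in every library (492 unadjusted), 0 with the 6 guide libraries alone (465 unadjusted), 19 with DESeq2 and 0 to 2 when a library was left out. With the replicate number as a block it was 26, or 15 with at least 10 counts in every library, 11 with the 6 guide libraries alone and 5 to 59 when a guide library was left out (5 without sgKEAP1-1 replicate 2, 6 without sgKEAP1-2 replicate 2, 51 without sgKEAP1-2 replicate 1 and 59 without sgKEAP1-2 replicate 3). Combinations of the block with another scaling or filter were chosen after seeing the data. Of DESeq2's 19 calls, 16 were also called with the block. Pairing by number held for some libraries and not for others. Same-numbered libraries of the guides deviated from their group means with correlations of 0.03, 0.52 and 0.21 across genes, and sgKEAP1-1 replicate 1 correlated best with sgKEAP1-2 replicate 3 (0.27). With the sgCtrl libraries the same-number values were 0.23, 0.38 and 0.16 for sgKEAP1-1 and -0.01, 0.34 and 0.20 for sgKEAP1-2. Not every pair exceeded 0.1, so a call lost or gained with the block is not read as a weaker or stronger effect. NFE2L2 ranged from -0.15 to 0.035 when a library was left out and changed sign only without sgKEAP1-2 replicate 3 (0.037 with the block). The cause was not tested. With 3 libraries a guide and 3157917 to 4725840 reads each, a typical feature's log2 difference was known to 0.45 units.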
